A study of Mus musculus with 18 samples.

Results

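The state of brown preadipocytes after 24 h with FGF6 was described from 6 of the 18 RNA-seq libraries of the study, 3 of FGF6-treated cells and 3 of vehicle-treated cells harvested at the same time. The libraries were chosen by their labels, not by any measured value. The cells were an immortalized line of murine brown preadipocytes, undifferentiated precursors of brown adipocytes from the stromal vascular fraction, which carries the SV40 T antigen in every group and is a model of 1 line rather than of fat tissue. The labels give a cell type, a treatment, a time and a replicate number, and no genotype, sex or animal. Whether the libraries of a group came from separate cultures is not stated, so that the p-values measure the spread between these libraries, which may be technical. Of 48023 genes in the count table, 19409 had no count in any library and 15071 passed the filter on low counts and were tested. In bulk RNA, fewer cells of a kind and less RNA per cell cannot be told apart.

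FGF6 is a secreted ligand that binds tyrosine kinase receptors together with heparan sulphate chains. An occupied receptor turns on the RAS-ERK and PI3K-AKT pathways, and ERK in turn raises the genes of its own inhibitors, the Sprouty proteins and dual-specificity phosphatases, and of ETS factors of the PEA3 group. In adipose precursors, FGF ligands are known as mitogens and as factors that act on the choice between growth and differentiation. The question of the comparison was which genes differ when this signal has been present for a day.

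Total counts per library at 24 h lay between 24471817 and 33471980, and 3 counts, used here as the floor of detection, corresponded to 0.0905 to 0.126 CPM, a measure that scales each count by the normalized library size. The third vehicle library held far more ribosomal RNA than the rest. The summed level of 8 ribosomal RNA-like loci, without the similar locus CT010467.1, was 1059 to 6914 CPM in the vehicle libraries and 1212 to 1282 CPM in the FGF6 libraries, the highest value being that of the third vehicle library. Ptprc and Adgre1, which mark leukocytes and macrophages, were at 0 in all 3 FGF6 libraries and at no more than 0.0841 CPM with vehicle, and the 10 markers of that list summed to 15 to 16.1 CPM in the vehicle libraries and 44.5 to 47.1 CPM in the FGF6 libraries, the higher sum coming with Cd14. The 10 endothelial markers summed to 9.50 to 10.8 CPM in the vehicle libraries and 13.2 to 14.6 CPM in the FGF6 libraries, the higher sum coming with Cdh5, and Pecam1 was at no more than 0.146 CPM in any of the 6. For skeletal myogenic markers the sums were 48.4 to 49.3 CPM in the vehicle libraries and 39.0 to 41.0 CPM in the FGF6 libraries, for mural and smooth muscle markers, mainly Notch3, 125 to 129.7 CPM in the vehicle libraries and 36.0 to 37.6 CPM in the FGF6 libraries, and for Schwann and neural markers 7.15 to 7.27 CPM in the vehicle libraries and 5.82 to 6.64 CPM in the FGF6 libraries. The part of such cells in the results was not tested.

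At an adjusted p under 0.05, 5409 genes were higher in FGF6-treated cells, 35.9% of the genes tested, and 5706 were lower, 37.9%. The other 3956 did not pass. Many of these differences were small: 5331 genes passed with an estimate under 1.5-fold. At least 2-fold, 1122 genes were higher (7.44%) and 2309 lower (15.3%). At 8-fold or more, 205 genes were higher and 582 lower. The CPM ranges of both groups did not overlap for 11274 genes, 74.8% of those tested. These shares are the background against which each gene family below was read. Values of single genes below are given for replicates 1, 2 and 3 of each group in that order, and adjusted p-values are those of edgeR's quasi-likelihood test over all genes tested. Over all genes tested, the median log2 fold change was -0.02, and another normalization moved it by 0.0192 at most.

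**Figure D1:**
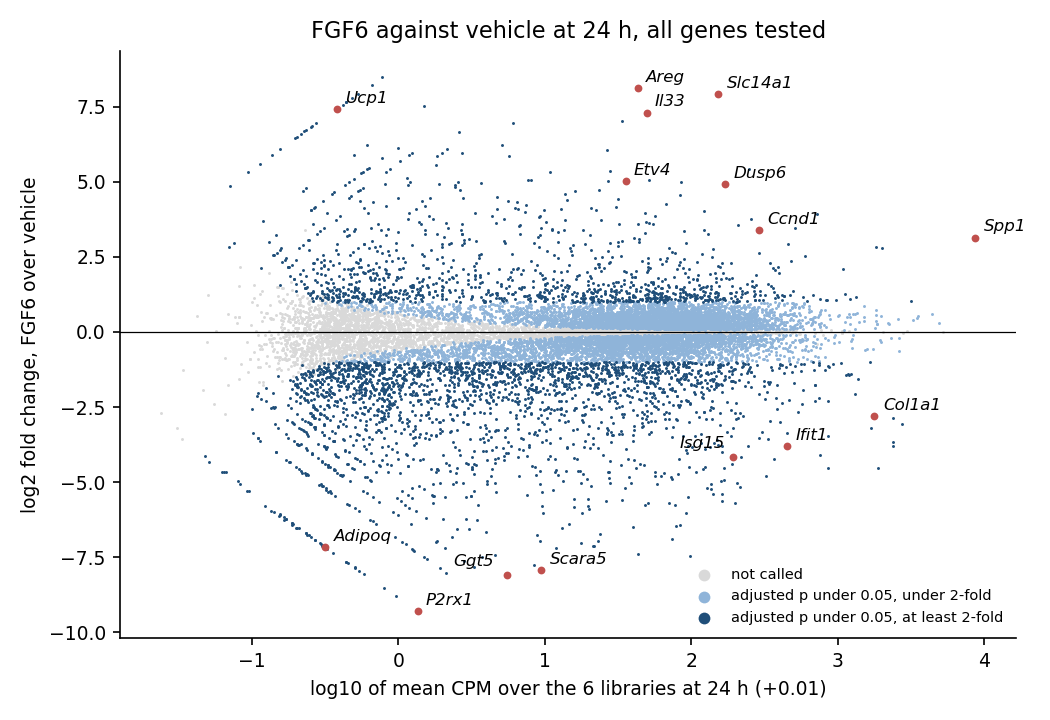
Each point is 1 of the 15071 genes tested, with the log10 of its mean CPM over the 6 libraries at 24 h on the x axis and its log2 fold change, FGF6 over vehicle, on the y axis. Dark points passed an adjusted p of 0.05 with at least 2-fold (1122 above and 2309 below 0), light blue points passed with less, and grey points did not pass. Areg at the top and Scara5 and P2rx1 at the bottom are among the genes named in the text, and the fitted value of a gene at 0 in 1 group depends on the prior count.

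Among genes with a mean of at least 1 CPM, the largest increase was that of Areg, which encodes amphiregulin, a ligand of the EGF receptor. Areg (chr5:91139599-91148432, plus strand) was at 0.315, 0.362 and 0.210 CPM in vehicle-treated and 88.4, 83.8 and 85.5 CPM in FGF6-treated cells (log2 fold change 8.12 ± 0.11, adjusted p = 3.87e-27). All 3 FGF6 libraries lay far above the vehicle libraries, which were near the floor. The promoter of Areg is shown because of its place at the head of this list and because it holds the palindrome TGACGTCA, the cAMP response element, in capitals (RefSeq, GRCm38.p6, chr5:91139349-91139648, plus strand, from 250 bases before to 50 after the start site).
Areg promoter: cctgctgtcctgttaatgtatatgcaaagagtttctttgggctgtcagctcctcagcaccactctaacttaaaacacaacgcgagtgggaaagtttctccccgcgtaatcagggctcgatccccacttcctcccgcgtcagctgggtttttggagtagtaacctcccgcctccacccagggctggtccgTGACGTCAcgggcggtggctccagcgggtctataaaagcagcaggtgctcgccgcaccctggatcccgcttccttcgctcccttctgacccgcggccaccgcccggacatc
The letters began 61 bases before the start site. They were present in 3.53% of the promoter-annotated genes tested, and a match describes the sequence alone.

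Slc14a1, a urea transporter, followed at 1.68, 0.995 and 1.09 CPM in vehicle-treated and 300.4, 300.2 and 309 CPM in FGF6-treated cells (log2 fold change 7.91 ± 0.09, adjusted p = 2.65e-28). Il33, an alarmin cytokine of the IL-1 family, was at 0.596, 0.603 and 0.673 CPM in vehicle-treated and 104, 97.5 and 92.8 CPM in FGF6-treated cells (log2 fold change 7.30 ± 0.10, adjusted p = 6.26e-27). Both genes were at 1.68 CPM or below in each vehicle library and near or above 93 CPM in each FGF6 library. Prss22, a secreted tryptase-like serine protease, was at 0.455, 0.663 and 0.378 CPM in vehicle-treated and 64.0, 64.9 and 72.2 CPM in FGF6-treated cells (log2 fold change 7.01 ± 0.13, adjusted p = 2.15e-24). Tcim, a small regulator of transcription, was at 0.631, 0.844 and 0.883 CPM in vehicle-treated and 49.1, 53.6 and 53.1 CPM in FGF6-treated cells (log2 fold change 6.04 ± 0.13, adjusted p = 3.01e-23), and shares 337 bases of exon with a gene on the other strand, from which it cannot be told apart if the counting was not stranded. Adcy8, an adenylyl cyclase, was at 0.105, 0.121 and 0.168 CPM in vehicle-treated and 8.97, 9.47 and 11.7 CPM in FGF6-treated cells (ratio of counts 78.0, counting interval 43.3 to 157, adjusted p = 5.71e-16). In each of these the lowest FGF6 library was above the highest vehicle library.

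The other 4 of the 10 largest increases started from a handful of counts, and for them the ratio of summed counts is given with its counting interval. Cd53, a tetraspanin of leukocyte membranes, was at 0, 0 and 0.0420 CPM in vehicle-treated and 2.95, 2.86 and 3.05 CPM in FGF6-treated cells (ratio of counts 252, counting interval 44.9 to 10010.0, adjusted p = 1.19e-12). Hao1, a peroxisomal hydroxyacid oxidase, was at 0.0350, 0.0905 and 0.168 CPM in vehicle-treated and 12.9, 11.4 and 12.0 CPM in FGF6-treated cells (ratio of counts 129, counting interval 65.2 to 299.7, adjusted p = 1.45e-18). Nckap1l, a subunit of the WAVE actin regulatory complex in blood cells, was at 0, 0.0905 and 0.0420 CPM in vehicle-treated and 5.18, 5.11 and 5.06 CPM in FGF6-treated cells (ratio of counts 109, counting interval 42.4 to 403, adjusted p = 1.10e-14). Mcpt8, a serine protease of the family named after mast cells, was at 0.0350, 0.0905 and 0.0420 CPM in vehicle-treated and 3.68, 4.25 and 4.73 CPM in FGF6-treated cells (ratio of counts 72.2, counting interval 30.6 to 224, adjusted p = 7.81e-13). Cd53, Nckap1l and Mcpt8 are known from blood cells. Of the 10 macrophage and leukocyte markers, 4 could be tested, of which 1 was higher (Cd14) and 3 lower, and Ptprc was at 0 in all FGF6 libraries. The summed level of the 10, given above, was higher with FGF6, and the part of such cells in these increases was not tested.

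The 10 largest decreases all ended at 0 to 4 counts per library. Scara5, a ferritin receptor known from adipose stromal cells (chr14:65666403-65764826, plus strand), was at 17.9, 18.7 and 19.8 CPM in vehicle-treated and 0.0365, 0.0357 and 0.147 CPM in FGF6-treated cells (ratio of counts 258, counting interval 118 to 704, adjusted p = 8.46e-21). Ggt5, the gamma-glutamyl transferase that cleaves leukotriene C4, was at 9.11, 12.2 and 11.6 CPM in vehicle-treated and 0, 0.0357 and 0.0734 CPM in FGF6-treated cells (ratio of counts 303, counting interval 103 to 1470.0, adjusted p = 1.19e-16). P2rx1, an ATP-gated ion channel, was at 2.42, 3.17 and 2.48 CPM in vehicle-treated and 0, 0 and 0 CPM in FGF6-treated cells (at least 24.7-fold, adjusted p = 1.22e-10, against the floor of 3 counts per library). All 3 transcripts fell to the limit of detection or close to it. Treml1, a receptor of the TREM family, was at 3.64, 4.52 and 4.50 CPM in vehicle-treated and 0, 0 and 0.0367 CPM in FGF6-treated cells (ratio of counts 349, counting interval 62.2 to 13820.0, adjusted p = 4.05e-14). Egfl6, a secreted matrix protein with EGF repeats, was at 6.10, 6.51 and 6.85 CPM in vehicle-treated and 0, 0 and 0.0734 CPM in FGF6-treated cells (ratio of counts 267, counting interval 73.7 to 2213, adjusted p = 2.58e-15). Fmo1, a flavin monooxygenase, was at 3.71, 3.89 and 3.78 CPM in vehicle-treated and 0, 0 and 0.0367 CPM in FGF6-treated cells (ratio of counts 314, counting interval 56 to 12450.0, adjusted p = 3.41e-12). No vehicle library of these genes was under 2.4 CPM, and no FGF6 library above 0.15 CPM. Gm4951, a predicted protein-coding gene, was at 14.2, 19.8 and 16.1 CPM in vehicle-treated and 0.0729, 0 and 0.147 CPM in FGF6-treated cells (ratio of counts 233, counting interval 107 to 637, adjusted p = 4.66e-13). Serpina3h, a transcribed pseudogene of a serine protease inhibitor family, was at 5.11, 5.91 and 5.68 CPM in vehicle-treated and 0, 0 and 0.0734 CPM in FGF6-treated cells (ratio of counts 231, counting interval 63.5 to 1910.0, adjusted p = 8.45e-17). Slc17a1, a phosphate transporter, was at 3.12, 3.32 and 2.86 CPM in vehicle-treated and 0, 0 and 0.0367 CPM in FGF6-treated cells (ratio of counts 258, counting interval 45.9 to 10230.0, adjusted p = 3.54e-12). These too had no FGF6 library above 0.15 CPM. Ces1g, a carboxylesterase, was at 3.05, 3.02 and 2.86 CPM in vehicle-treated and 0.0365, 0 and 0 CPM in FGF6-treated cells (ratio of counts 246, counting interval 43.9 to 9776, adjusted p = 3.01e-14), and Serpina3h and Ces1g have close relatives in the genome with which reads may be shared.

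**Figure D2:**
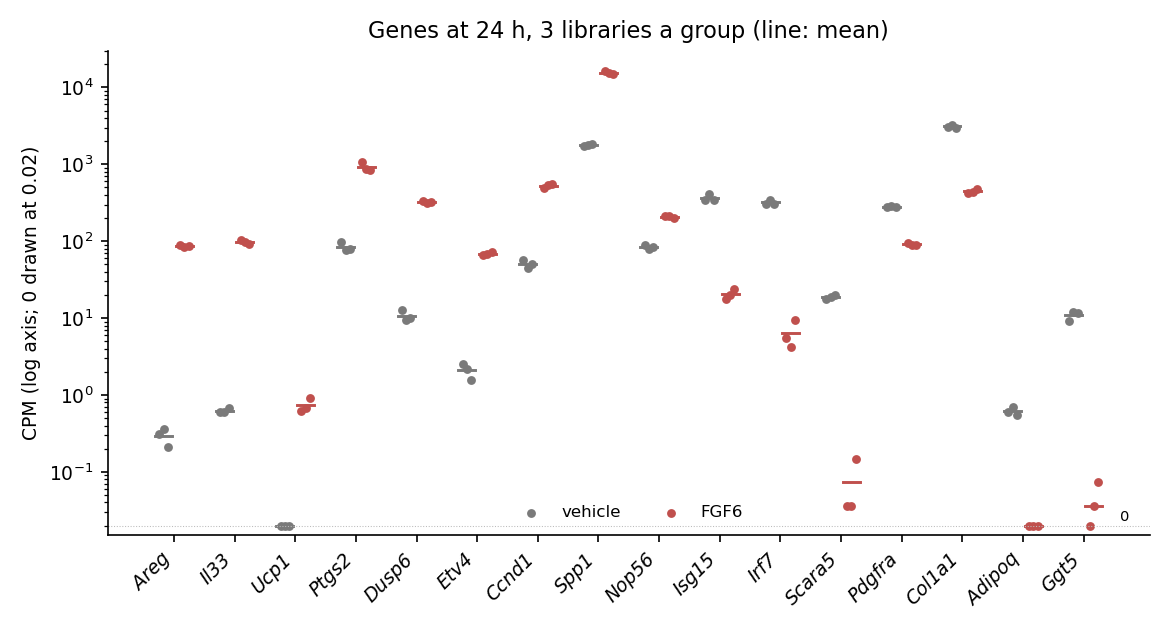
CPM on a log axis for 16 genes in each of the 3 vehicle (grey) and 3 FGF6 (red) libraries at 24 h, with a line at the group mean and 0 drawn at 0.02. The 16 were picked from the genes named in the text. For none of them did the libraries of the 2 groups overlap, beside 74.8% of all genes tested without overlap. Ucp1 was at 0 in the vehicle libraries and Adipoq at 0 in the FGF6 libraries.

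Receptor and feedback genes of the FGF pathway were read as transcripts, and the activity of the receptors or of ERK was not measured in these data. Fgfr1, the most widely used receptor of mesenchymal cells, was at 249, 250.1 and 229.6 CPM in vehicle-treated and 327, 341 and 343 CPM in FGF6-treated cells (log2 fold change 0.47 ± 0.04, adjusted p = 1.37e-11). Fgfr2 went the other way, at 32.4, 33.9 and 34.5 CPM in vehicle-treated and 8.17, 7.72 and 9.03 CPM in FGF6-treated cells (log2 fold change -2.01 ± 0.08, adjusted p = 5.24e-18). Fgfr3 was low, at 2.45, 2.56 and 2.02 CPM in vehicle-treated and 1.86, 1.46 and 1.91 CPM in FGF6-treated cells (log2 fold change -0.44 ± 0.18, adjusted p = 0.0335). The ranges of the 2 groups did not overlap for any of the 3 receptors, and Fgfr1 and Fgfr3 each share exon bases with a gene on the other strand. The heparan sulphate carrier Gpc1, a co-receptor of FGF ligands, rose from 207 ± 6.77 to 526 ± 18.5 CPM (mean ± SD, n = 3, here and below), while Gpc6 fell from 62.0 ± 3.98 to 28.7 ± 0.412 CPM. Of 13 tested of 17 receptors and co-receptors, 4 were higher and 6 lower (1 and 2 by at least 2-fold), shares near the background. Among ligands, Fgf2 was at 2.91, 2.47 and 2.14 CPM in vehicle-treated and 43.9, 39.5 and 43.7 CPM in FGF6-treated cells (log2 fold change 4.07 ± 0.09, adjusted p = 1.21e-22), and Fgf10 rose from 29.9 ± 3.46 to 43.2 ± 3.05 CPM. Fgf7 was slightly lower, from 267 ± 15.7 to 235 ± 9.71 CPM. Of 22 ligands, 15 were under the filter, and of the 7 tested 3 were higher and 1 lower (2 and 0 by at least 2-fold).

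The ERK feedback inhibitors were higher as a group, but not all of them. Of 21 members, all tested, 14 were higher and 5 lower (12 and 2 by at least 2-fold), with a median log2 fold change of 1.57 against -0.02 over all genes. Dusp6, the phosphatase of ERK in the cytoplasm (chr10:99263231-99267489, plus strand), was at 12.8, 9.56 and 9.96 CPM in vehicle-treated and 338, 316 and 328 CPM in FGF6-treated cells (log2 fold change 4.93 ± 0.07, adjusted p = 1.65e-26). Dusp4, a nuclear phosphatase of the same family, rose from 6.67 ± 0.732 to 128 ± 13.0 CPM, Dusp9 from 7.75 ± 0.725 to 95.6 ± 8.00 CPM and Dusp5 from 15.8 ± 1.56 to 161 ± 2.59 CPM. The Sprouty genes split: Spry4 rose from 9.77 ± 1.15 to 56 ± 2.58 CPM and Spry2 from 16.2 ± 1.30 to 61.6 ± 0.412 CPM, whereas Spry1 fell from 6.12 ± 0.746 to 2.35 ± 0.0117 CPM. Il17rd (Sef), another antagonist of FGF receptors, fell from 7.97 ± 0.800 to 3.01 ± 0.314 CPM. Spred1 and Errfi1, inhibitors of RAF activation and of the EGF receptor, rose from 77.0 ± 2.64 to 268 ± 3.94 CPM and from 162 ± 3.15 to 629 ± 16.6 CPM.

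Transcription factors downstream of ERK also remained higher. Etv4, of the PEA3 group, was at 2.56, 2.20 and 1.56 CPM in vehicle-treated and 65.4, 68.9 and 72.3 CPM in FGF6-treated cells (log2 fold change 5.01 ± 0.09, adjusted p = 1.86e-24), with no overlap between groups. Etv5 rose from 7.41 ± 0.525 to 59.9 ± 3.52 CPM and Etv1 from 0.694 ± 0.158 to 8.54 ± 0.420 CPM. The AP-1 subunit Fosl1 rose from 54.6 ± 8.33 to 249 ± 3.86 CPM and Jun from 97.2 ± 8.46 to 284 ± 13.6 CPM, while Fos rose less, at 1.91 ± 0.329 CPM in vehicle-treated and 3.31 ± 0.556 CPM in FGF6-treated cells. Egr1, a zinc finger factor induced within minutes of ERK activation, rose from 29.5 ± 0.473 to 70.6 ± 1.61 CPM, and Ier3 from 32.6 ± 1.87 to 383 ± 22.8 CPM. Of 23 ETS and immediate early factors, 18 were higher and 5 lower (13 and 0 by at least 2-fold). None of the 5 that were lower reached 2-fold, and Atf3 was among them, at 6.70 ± 0.790 CPM in vehicle-treated and 3.74 ± 0.281 CPM in FGF6-treated cells. Myc rose from 50.4 ± 3.41 to 169 ± 5.74 CPM, and the MYC antagonists Mxd4 and Mxd1 fell from 171 ± 2.60 to 41.3 ± 0.372 CPM and from 35.1 ± 1.14 to 10.6 ± 0.747 CPM. In the MYC network, 11 of 12 genes were tested, of which 4 were higher and 5 lower (2 and 2 by at least 2-fold).

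Several EGF family ligands rose while the receptor gene Egfr fell. Ereg, which encodes epiregulin, was at 14.8, 13.6 and 14.1 CPM in vehicle-treated and 265, 216 and 205 CPM in FGF6-treated cells (log2 fold change 4.01 ± 0.08, adjusted p = 3.48e-24). Hbegf, the heparin-binding member, rose from 8.91 ± 0.713 to 87.3 ± 2.87 CPM. Egfr was at 81.6, 88.3 and 88.0 CPM in vehicle-treated and 14.4, 13.8 and 13.7 CPM in FGF6-treated cells (log2 fold change -2.62 ± 0.06, adjusted p = 6.08e-22), and no library of either group reached the range of the other. Nrg1, a ligand of ERBB3 and ERBB4, fell from 96.3 ± 1.53 to 9.48 ± 0.589 CPM. Of 11 tested of 14 ligands and receptors, 4 were higher and 4 lower (4 and 3 by at least 2-fold). Genes repressed by PI3K signalling through FoxO factors were mostly lower: of 17, 2 were higher and 13 lower (1 and 8 by at least 2-fold). Txnip, an inhibitor of thioredoxin and of glucose uptake, fell from 134 ± 9.36 to 14.9 ± 0.941 CPM, Pik3ip1, an inhibitor of PI3K, from 24.3 ± 2.06 to 3.07 ± 0.468 CPM, and the transcripts of Foxo1 and Foxo3 themselves from 26.2 ± 1.37 to 11.8 ± 0.350 CPM and from 122 ± 3.04 to 56.8 ± 0.971 CPM. Bcl6 was the one member at least 2-fold higher, from 15.9 ± 0.883 to 52.8 ± 2.12 CPM.

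**Figure D3:**
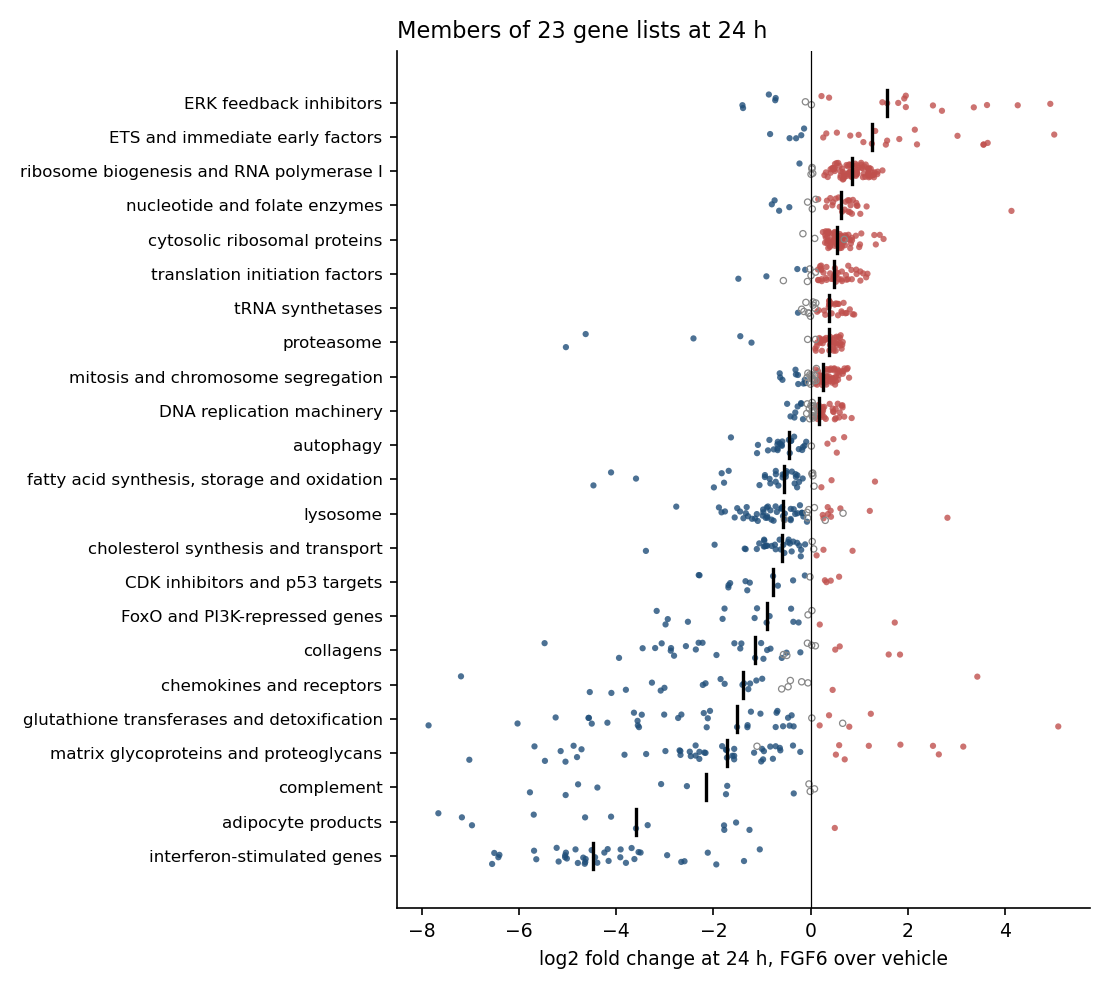
Each point is the log2 fold change at 24 h (x axis) of 1 tested member of 1 of 23 gene lists (y axis), red where it was higher and blue where lower at an adjusted p under 0.05, and open where it did not pass. Black lines are medians, which run from -4.47 for interferon-stimulated genes at the bottom to 1.57 for ERK feedback inhibitors at the top.

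Of the cell cycle genes, cyclin D1 stood apart. Ccnd1, which brings CDK4 and CDK6 to the retinoblastoma protein, was at 57.1, 44.3 and 50.5 CPM in vehicle-treated and 499, 535 and 553 CPM in FGF6-treated cells (log2 fold change 3.39 ± 0.07, adjusted p = 2.04e-23). Its exons share 1100 bases with a gene on the other strand. The 13 other G1 cyclins, CDKs, E2F and RB genes lay between -0.48 and 1.21, E2f2 being the highest at 5.4 ± 0.761 CPM in vehicle-treated and 12.4 ± 1.13 CPM in FGF6-treated cells, and Ccnd2 did not pass, at 179 ± 4.84 CPM in vehicle-treated and 176 ± 1.93 CPM in FGF6-treated cells. CDK inhibitors and p53 targets were mainly lower: of 17, 4 were higher and 12 lower (0 and 8 by at least 2-fold). Cdkn1c (p57) fell from 1.55 ± 0.435 to 0.316 ± 0.151 CPM, Cdkn1b (p27) from 196 ± 5.31 to 115 ± 2.28 CPM and Gadd45g from 49.9 ± 5.87 to 10.3 ± 0.923 CPM, while Cdkn1a (p21) was lower by less, at 159 ± 7.97 CPM in vehicle-treated and 147 ± 1.25 CPM in FGF6-treated cells.

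The machinery of replication and mitosis differed little. Of 54 replication genes, 32 were higher and 8 lower (0 and 0 by at least 2-fold), and of 73 mitotic genes 50 were higher and 10 lower (0 and 0 by at least 2-fold). Their medians were 0.16 and 0.25. Mki67, the usual marker of cycling cells, was at 498, 549 and 561 CPM in vehicle-treated and 491, 505 and 499 CPM in FGF6-treated cells (log2 fold change -0.11 ± 0.04, adjusted p = 0.0211). The difference was small and downward, and the ranges of the groups overlapped. Cdk1 was higher, from 341 ± 5.37 to 512 ± 7.93 CPM, as was Bub1, a kinase of the spindle checkpoint, from 81.1 ± 2.27 to 140.1 ± 2.47 CPM. In the BCL2 family, which governs survival, 15 of 18 genes were tested and 8 were higher and 7 lower (1 and 3 by at least 2-fold). Bmf, a killer protein of the BH3-only class, fell from 20.6 ± 2.29 to 1.18 ± 0.504 CPM, and Bcl2l11 (Bim) from 33.6 ± 0.910 to 19.99 ± 0.820 CPM, while the survival genes Bcl2l1 and Mcl1 rose from 78.0 ± 2.74 to 143 ± 2.81 CPM and from 192 ± 4.26 to 241 ± 2.92 CPM. Of the members named here only Bmf changed by at least 2-fold. The family was split, with 53.3% of the tested members higher, 46.7% lower and a median of 0.21.

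The genes that make ribosomes rose together. Of 82 genes of ribosome biogenesis and RNA polymerase I, all tested, 77 were higher and 1 lower (28 and 0 by at least 2-fold), against 35.9% of all genes higher, and the median was 0.84. Nop56, a core protein of box C/D small nucleolar ribonucleoproteins, was at 89.2, 78.6 and 84.0 CPM in vehicle-treated and 209.8, 214 and 201 CPM in FGF6-treated cells (log2 fold change 1.31 ± 0.04, adjusted p = 2.52e-19). Ncl (nucleolin) was at 803, 817 and 818 CPM in vehicle-treated and 1859.9, 1887 and 1772 CPM in FGF6-treated cells (log2 fold change 1.18 ± 0.03, adjusted p = 3.09e-22). Nhp2, of the box H/ACA particles, rose from 61.5 ± 4.56 to 171 ± 0.697 CPM, and Polr1b, a core subunit of RNA polymerase I, from 31.7 ± 0.730 to 69.0 ± 3.13 CPM. The FGF6 libraries were the higher in all 4, with no overlap. The summed level of the 82 genes was 6904 ± 94.9 CPM with vehicle and 13186 ± 265 CPM with FGF6 at 24 h (mean ± SD, n = 3). The earlier times had stood at 7783 ± 113 and 15311 ± 107 CPM at 8 h, and at 9897 ± 131 and 15358 ± 286 CPM at 4 h.

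Of 72 small nucleolar RNA genes tested, 27 were higher (37.5%, beside 35.9% of all genes), 18 of them by at least 2-fold, and 45 did not pass. None was lower by edgeR at an adjusted p under 0.05. Without the third vehicle library, the log2 fold change of Snord43 went from 1.49 to 2.55 and that of Snord35b from -0.37 to 1.00. Both had 15 or fewer counts in each vehicle library. The calls for the 72 small nucleolar RNA genes were not recounted without that library. Their host transcripts, spliced RNAs that carry snoRNAs in introns, included Gas5, from 64.5 ± 2.77 to 104 ± 8.17 CPM, Snhg1, from 49.5 ± 5.99 to 98.2 ± 5.21 CPM, and Snhg5, from 24.7 ± 2.16 to 51.7 ± 1.42 CPM, and of 16 tested of 18 11 were higher and 3 lower (2 and 2 by at least 2-fold). Cytosolic ribosomal proteins were higher in 76 of 79 tested of 83, 6 by at least 2-fold, with none lower and a median of 0.53. Ribosomal protein genes have many processed copies, and their counts and those of the pseudogenes are uncertain where reads map to both. Among 498 processed pseudogenes tested, 121 were higher (24.3%, below the 35.9% of all genes) and 26 lower, and 351 (70.5%) did not pass.

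Translation factors, tRNA synthetases and nucleotide enzymes had medians of 0.47, 0.38 and 0.62, below the 0.84 of ribosome biogenesis. Of 50 tested of 53 initiation factors, 41 were higher and 4 lower (5 and 1 by at least 2-fold). Eif4e, the cap-binding protein, rose from 91.8 ± 4.40 to 206 ± 8.22 CPM, as did its inhibitor Eif4ebp1, from 127 ± 7.55 to 258 ± 13.0 CPM, while Pdcd4, an inhibitor of the helicase eIF4A, fell from 58.2 ± 5.27 to 20.7 ± 0.496 CPM. Of 35 tRNA synthetases, 24 were higher and 1 lower (0 and 0 by at least 2-fold), and of 32 nucleotide and folate enzymes 25 were higher and 4 lower (3 and 0 by at least 2-fold). Upp1, a uridine phosphorylase, rose most in that list, from 0.689 ± 0.212 to 11.8 ± 1.61 CPM, while Cad and Ppat, at the head of pyrimidine and purine synthesis, rose from 213 ± 7.66 to 411 ± 0.789 CPM and from 58.8 ± 0.840 to 119 ± 1.10 CPM. In polyamine synthesis, Odc1, the rate-limiting decarboxylase, was at 41.1, 35.0 and 32.4 CPM in vehicle-treated and 186, 186 and 174 CPM in FGF6-treated cells (log2 fold change 2.33 ± 0.06, adjusted p = 6.06e-22), and of 11 genes 8 were higher and 2 lower (6 and 0 by at least 2-fold). Targets of the amino acid response factor ATF4 were divided: of 29, 15 were higher and 8 lower (2 and 2 by at least 2-fold), with the cystine transporter Slc7a11 higher, from 4.10 ± 0.343 to 15 ± 0.738 CPM, and the stress factor Ddit3 lower, from 88.6 ± 0.707 to 36.4 ± 2.19 CPM.

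Glucose transport and glycolysis rose at several steps. Slc2a1 (GLUT1), the main glucose carrier of growing cells, was at 135, 138 and 130.3 CPM in vehicle-treated and 384, 381 and 390.2 CPM in FGF6-treated cells (log2 fold change 1.52 ± 0.04, adjusted p = 1.07e-21). Hk2, a hexokinase, was at 46.1, 47.6 and 45.7 CPM in vehicle-treated and 135, 130.3 and 127 CPM in FGF6-treated cells (log2 fold change 1.49 ± 0.04, adjusted p = 1.64e-21). Slc16a3, the lactate exporter MCT4, was at 26.1, 28.5 and 25.5 CPM in vehicle-treated and 93.4, 90.8 and 91.9 CPM in FGF6-treated cells (log2 fold change 1.78 ± 0.05, adjusted p = 1.15e-20). None of their groups overlapped. Of 31 genes, 19 were higher and 10 lower (3 and 6 by at least 2-fold). Lower were Pdk4, a kinase that turns off pyruvate dehydrogenase, from 20.8 ± 1.15 to 5.95 ± 0.935 CPM, and Eno2, the neuronal enolase, from 37.9 ± 2.78 to 12.7 ± 0.577 CPM. In the pentose phosphate pathway, 7 of 8 genes were tested and 6 were higher and 0 lower (0 and 0 by at least 2-fold). Respiratory chain genes differed little: of 80 tested of 82 nuclear genes, 19 were higher and 36 lower (0 and 1 by at least 2-fold), with a median of -0.07, and of 7 tested of 13 mitochondrially encoded genes 4 were higher and 0 lower (0 and 0 by at least 2-fold).

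Genes of lipid synthesis and use were lower. Of 34 genes of cholesterol synthesis, uptake, export and their regulation, 3 were higher and 29 lower (0 and 6 by at least 2-fold), with a median of -0.59. Abca1, the cholesterol exporter, was at 16.7, 14.9 and 14.5 CPM in vehicle-treated and 1.71, 1.5 and 1.17 CPM in FGF6-treated cells (log2 fold change -3.39 ± 0.13, adjusted p = 1.06e-17). Hmgcs1 fell from 799 ± 50.3 to 424 ± 13.5 CPM and Sqle, a later step of synthesis, from 552 ± 15.6 to 355 ± 12.4 CPM. Of 37 genes of fatty acid synthesis, storage and oxidation, 3 were higher and 30 lower (1 and 8 by at least 2-fold). Lpl, lipoprotein lipase, was at 1339, 1454 and 1471 CPM in vehicle-treated and 85.5, 78.2 and 84.3 CPM in FGF6-treated cells (log2 fold change -4.10 ± 0.05, adjusted p = 5.35e-28). The FGF6 libraries were all far below the vehicle libraries. Fasn (fatty acid synthase) did not pass, at 872 ± 21.1 CPM in vehicle-treated and 914 ± 13.5 CPM in FGF6-treated cells. Neither did Srebf1, the regulator of this pathway, at 162 ± 7.83 CPM in vehicle-treated and 167 ± 2.64 CPM in FGF6-treated cells. Acsl4, an acyl-CoA synthetase for arachidonic acid, rose from 138 ± 1.97 to 345 ± 10.6 CPM.

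Adipogenic transcription factors were lower, including the central pair. Pparg was at 78.7, 76.2 and 80.6 CPM in vehicle-treated and 18.7, 19.1 and 19.3 CPM in FGF6-treated cells (log2 fold change -2.04 ± 0.05, adjusted p = 1.01e-21). Cebpa was at 50.7, 50.1 and 47.0 CPM in vehicle-treated and 9.56, 11.5 and 12.2 CPM in FGF6-treated cells (log2 fold change -2.15 ± 0.07, adjusted p = 1.94e-19). Neither gene had a library of one group within the range of the other. Zfp423, a factor of preadipocyte commitment, fell from 11 ± 1.30 to 0.801 ± 0.360 CPM and Ebf2, a factor of brown precursors, from 54.8 ± 1.76 to 42.1 ± 1.34 CPM, while Cebpb did not pass, at 99.2 ± 18.2 CPM in vehicle-treated and 94.1 ± 12.7 CPM in FGF6-treated cells, and Cebpd rose from 86.0 ± 15.5 to 137 ± 7.24 CPM. Of 24 tested of 25, 5 were higher and 17 lower (4 and 12 by at least 2-fold). Among the increases were Sox9, from 33.6 ± 0.977 to 204 ± 8.48 CPM, Foxc2, from 19.4 ± 2.99 to 81.0 ± 7.20 CPM, and Klf5, from 2.86 ± 0.266 to 10.8 ± 0.228 CPM. Sox9 is a factor of chondrocyte and progenitor cells whose loss accompanies adipocyte differentiation.

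Most genes for products of adipocytes fell. Of 13 tested of 18, 12 were lower, all by at least 2-fold, with a median of -3.59 as fitted and -2.99 with the 2 genes at 0 set to their bound. Adipoq (adiponectin) was at 0.596, 0.694 and 0.547 CPM in vehicle-treated and 0, 0 and 0 CPM in FGF6-treated cells (at least 5.62-fold, adjusted p = 1.80e-07), and Plin1 (perilipin), of the lipid droplet coat, at 0.876, 0.875 and 0.841 CPM in vehicle-treated and 0, 0 and 0 CPM in FGF6-treated cells (at least 7.93-fold, adjusted p = 4.38e-08). Fabp4, a fatty acid carrier, was at 149, 158 and 173 CPM in vehicle-treated and 63.3, 69.8 and 67.6 CPM in FGF6-treated cells (log2 fold change -1.26 ± 0.05, adjusted p = 3.96e-18). Agt (angiotensinogen) fell from 137 ± 8.56 to 2.66 ± 0.878 CPM and Apod, a lipocalin, from 45.7 ± 5.33 to 0.364 ± 0.130 CPM. Fabp5 was the exception, from 43.2 ± 0.924 to 60.9 ± 3.55 CPM. The summed level of the 18 genes was 935 ± 11.8, 509 ± 26.7 and 225 ± 6.39 CPM with FGF6 at 4, 8 and 24 h, beside 1918 ± 81.1, 1825 ± 66.3 and 1861 ± 74.1 CPM with vehicle. Such a sum follows its most abundant members and does not describe the time course of each of the 18 genes.

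Ucp1, the uncoupling protein of brown fat (chr8:83290352-83298452, plus strand), had 17, 19 and 25 counts in the FGF6 libraries at 24 h, or 0.620, 0.679 and 0.918 CPM, and 0 counts in the vehicle libraries (at least 6.89-fold, adjusted p = 3.34e-06). It was at 0 in all 12 libraries of 4 and 8 h. Its counts were low, and above the floor in each of the 3 libraries. Other genes of the brown programme went in both directions. Ppargc1a, the coactivator of mitochondrial and brown genes, was at 9.14, 8.72 and 9.04 CPM in vehicle-treated and 3.10, 2.57 and 2.86 CPM in FGF6-treated cells (log2 fold change -1.65 ± 0.13, adjusted p = 7.98e-12). Irf4, a partner of that coactivator, was at 3.15, 3.29 and 3.66 CPM in vehicle-treated and 0.0729, 0.0357 and 0.0734 CPM in FGF6-treated cells (ratio of counts 55.3, counting interval 23.4 to 172, adjusted p = 2.02e-14). Prdm16 rose from 6.02 ± 0.284 to 9.08 ± 0.758 CPM, Mecom from 17.2 ± 0.693 to 49.0 ± 1.66 CPM and Lrrfip1 from 119 ± 3.64 to 239 ± 3.87 CPM, Flii was slightly higher, at 172 ± 3.32 CPM in vehicle-treated and 182 ± 4.79 CPM in FGF6-treated cells, and Esrra did not pass, at 36.1 ± 2.74 CPM in vehicle-treated and 37.5 ± 2.32 CPM in FGF6-treated cells. Dio2 had no count at 24 h. Of 21 tested of 33, 8 were higher and 10 lower (2 and 7 by at least 2-fold).

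Markers by which adipose precursors are sorted went in both directions. Pdgfra, a receptor of platelet-derived growth factor, was at 278, 283 and 281 CPM in vehicle-treated and 95.3, 88.8 and 90.3 CPM in FGF6-treated cells (log2 fold change -1.62 ± 0.04, adjusted p = 6.24e-23), and shares 622 exonic bases with a gene on the other strand. Pdgfrb was at 684, 704 and 690.3 CPM in vehicle-treated and 134, 131 and 136 CPM in FGF6-treated cells (log2 fold change -2.37 ± 0.03, adjusted p = 3.16e-27). Ly6a (Sca-1) was at 228, 262 and 238 CPM in vehicle-treated and 37.5, 28.3 and 31.2 CPM in FGF6-treated cells (log2 fold change -2.91 ± 0.11, adjusted p = 6.71e-18). Cd34 was at 17.5, 15.7 and 16.5 CPM in vehicle-treated and 40.2, 46.7 and 41.9 CPM in FGF6-treated cells (log2 fold change 1.38 ± 0.08, adjusted p = 9.69e-14), the opposite direction. The same was true of Cd44, from 165 ± 5.66 to 503 ± 19.96 CPM, Pi16, from 0.405 ± 0.151 to 6.26 ± 0.938 CPM, and Nt5e (CD73), from 0.716 ± 0.113 to 9.84 ± 1.25 CPM. Vcam1 fell from 456 ± 23.1 to 32.7 ± 1.64 CPM and Cxcl12, a stromal chemokine, from 1636 ± 47.7 to 70.3 ± 7.92 CPM. Of 26 tested of 30 precursor and stromal markers, 9 were higher and 16 lower (6 and 13 by at least 2-fold). Dlk1 had no count at 24 h, so that this marker of preadipocytes was not detected in either group. The 8 adipocyte markers, mainly Fabp4, summed to 156 to 178 CPM in the vehicle libraries and 63.4 to 70.1 CPM in the FGF6 libraries. Of these 8, 4 were under the filter. The 11 preadipocyte markers summed to 5992 to 6429 CPM in the vehicle libraries and 1528 to 1600.3 CPM in the FGF6 libraries. Of 10 tested of these 11, 3 were higher and 7 lower.

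Most collagen and matrix glycoprotein genes were lower. Of 33 tested of 44 collagens, 4 were higher and 24 lower (2 and 18 by at least 2-fold), with a median of -1.14, and their sum was 23821 to 25724 CPM in the vehicle libraries and 6627 to 7052 CPM in the FGF6 libraries. Col1a1, the alpha 1 chain of type I collagen, was at 3052, 3278 and 2990.4 CPM in vehicle-treated and 418, 431 and 482 CPM in FGF6-treated cells (log2 fold change -2.81 ± 0.05, adjusted p = 5.06e-24). Col12a1, which coats type I fibrils, fell from 194 ± 3.38 to 17.7 ± 0.964 CPM, and Col8a2 from 6.06 ± 0.600 to 0.133 ± 0.0434 CPM. Against the trend, Col17a1 and Col10a1 rose, from 1.59 ± 0.370 to 5.60 ± 0.413 CPM and from 0.859 ± 0.207 to 2.57 ± 0.266 CPM. Lox, the lysyl oxidase that crosslinks collagen and elastin, was at 4140.3, 4486 and 4624 CPM in vehicle-treated and 361, 328 and 359 CPM in FGF6-treated cells (log2 fold change -3.66 ± 0.04, adjusted p = 2.65e-28). Of 16 genes of collagen processing and crosslinking, 3 were higher and 11 lower (1 and 7 by at least 2-fold). All FGF6 libraries were below all vehicle libraries for Col1a1 and Lox.

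Glycoproteins and proteoglycans were lower in 42 of 51 tested of 55, 33 by at least 2-fold. Aspn, a small leucine-rich proteoglycan, fell from 35.1 ± 0.837 to 0.266 ± 0.137 CPM, Postn (periostin) from 625 ± 61.5 to 22.4 ± 2.68 CPM, Ogn from 99.4 ± 9.17 to 1.94 ± 0.198 CPM and Thbs1 (thrombospondin) from 928 ± 13.0 to 145 ± 4.29 CPM. Yet the summed level of this list was higher, at 21078 to 22016 CPM in the vehicle libraries and 27052 to 28252 CPM in the FGF6 libraries. Spp1 (osteopontin), a secreted phosphoprotein that binds integrins, was at 1719, 1770.1 and 1829 CPM in vehicle-treated and 16452, 15217 and 15114 CPM in FGF6-treated cells (log2 fold change 3.14 ± 0.03, adjusted p = 1.26e-28), and its increase was larger than the rise in the sum. Tnc (tenascin C) rose from 178 ± 4.33 to 1015 ± 32.1 CPM, Dcn (decorin) from 21.4 ± 0.464 to 132 ± 26.0 CPM and Fn1 (fibronectin) from 1614 ± 58.6 to 2312 ± 38.7 CPM.

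Proteases that cut the matrix divided by gene. Of 43 tested of 60 proteases and inhibitors, 10 were higher and 29 lower (7 and 21 by at least 2-fold). Mmp2, a gelatinase, fell from 285 ± 12.0 to 21.1 ± 0.776 CPM and Adamts5, an aggrecanase, from 307 ± 7.52 to 9.87 ± 0.744 CPM. Mmp3, the stromelysin, was at 0.280, 0.121 and 0.168 CPM in vehicle-treated and 13.2, 10.8 and 9.36 CPM in FGF6-treated cells (log2 fold change 5.86 ± 0.22, adjusted p = 7.37e-18), and Mmp13, a collagenase, rose from 1.06 ± 0.0787 to 12.2 ± 0.695 CPM. Adamts8 was at 0, 0 and 0 CPM in vehicle-treated and 1.46, 1.25 and 1.87 CPM in FGF6-treated cells (at least 14.2-fold, adjusted p = 6.48e-10), with 489 exonic bases shared with a gene on the other strand. Serpinb2 (plasminogen activator inhibitor 2) rose from 0.177 ± 0.175 to 5.10 ± 0.850 CPM and Plau (urokinase) from 25.9 ± 2.08 to 42.6 ± 1.91 CPM, while Plat fell from 129 ± 1.15 to 83.9 ± 0.786 CPM.

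Integrins, the receptors for these proteins, changed in both directions as well: of 22 tested of 26, 11 were higher and 8 lower (5 and 8 by at least 2-fold). Itga6, a laminin receptor chain, was at 4.97, 4.95 and 5.59 CPM in vehicle-treated and 158, 164 and 169.8 CPM in FGF6-treated cells (log2 fold change 4.99 ± 0.07, adjusted p = 5.19e-27). Itgb7 rose from 2.75 ± 0.530 to 59.9 ± 0.238 CPM and Itga2, a collagen receptor chain, from 0.465 ± 0.235 to 4.86 ± 0.560 CPM, while Itga1, another collagen receptor chain, fell from 13.3 ± 1.01 to 3.49 ± 0.271 CPM and Itgad from 26.9 ± 0.820 to 1.08 ± 0.120 CPM. Hyaluronan synthase 1, the product of Has1, had transcripts at 2.07, 0.814 and 1.09 CPM in vehicle-treated and 53.9, 53.3 and 54.5 CPM in FGF6-treated cells (log2 fold change 5.36 ± 0.14, adjusted p = 3.65e-21), and Has2 rose from 13.6 ± 0.20 to 40.2 ± 1.42 CPM. Cemip, which depolymerizes hyaluronan, was at 51.3, 57.0 and 54.3 CPM in vehicle-treated and 1.90, 1.54 and 1.54 CPM in FGF6-treated cells (log2 fold change -5.03 ± 0.08, adjusted p = 1.82e-25). Of 16 tested of 19 genes of that list, 8 were higher and 7 lower (3 and 5 by at least 2-fold). Contractile and SRF target genes were lower on balance: of 32, 10 were higher and 19 lower (0 and 13 by at least 2-fold). Acta2 (smooth muscle actin) fell from 609.9 ± 3.81 to 77.4 ± 2.76 CPM and Tagln from 88.1 ± 1.26 to 25.2 ± 0.545 CPM, while Ccn2, another SRF and YAP target, rose from 23.2 ± 3.74 to 34.4 ± 3.10 CPM and Ccn1 did not pass, at 126 ± 18 CPM in vehicle-treated and 133 ± 7.07 CPM in FGF6-treated cells. The sum of mural cell markers, given above, moved in the same direction, and its part was not tested. Of 25 tested of 64 cadherins, claudins and junction genes, 12 were higher and 12 lower (5 and 7 by at least 2-fold), with Cdh11, the cadherin of mesenchymal cells, lower, from 157 ± 7.93 to 32.0 ± 1.75 CPM, and Cdh6 higher, at 0.105, 0.0302 and 0.0420 CPM in vehicle-treated and 4.01, 4.14 and 3.45 CPM in FGF6-treated cells (ratio of counts 66.2, counting interval 28.1 to 205, adjusted p = 8.62e-13).

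Interferon-stimulated genes fell as an entire list. All 38 were tested, all 38 were lower by at least 2-fold against 15.3% of all genes, and in all 38 the groups did not overlap, against 74.8%. Their median log2 fold change was -4.47, from -6.55 to -1.05. These genes are induced by the interferon-activated factor ISGF3 and encode antiviral proteins. Irf7, the amplifier of type I interferon induction, was at 308, 347 and 303 CPM in vehicle-treated and 5.51, 4.22 and 9.51 CPM in FGF6-treated cells (log2 fold change -5.64 ± 0.22, adjusted p = 9.90e-18). Isg15, a ubiquitin-like modifier (chr4:156199424-156200818, minus strand), was at 343, 409 and 344 CPM in vehicle-treated and 17.5, 19.9 and 24.1 CPM in FGF6-treated cells (log2 fold change -4.15 ± 0.19, adjusted p = 2.21e-16). Ifit1, which binds foreign 5′ RNA ends (chr19:34640871-34650009, plus strand), was at 724, 880.0 and 914 CPM in vehicle-treated and 57.0, 58.2 and 65.8 CPM in FGF6-treated cells (log2 fold change -3.80 ± 0.21, adjusted p = 8.79e-15). The FGF6 libraries were below the vehicle libraries throughout. Bst2 (tetherin) fell from 690.4 ± 78.6 to 36.5 ± 10.5 CPM, Mx2 from 79.5 ± 5.52 to 0.875 ± 0.483 CPM and Ifi44 from 166 ± 15.6 to 1.94 ± 0.932 CPM.

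The promoters of Ifit1 and Isg15 are shown for the repeated GAAANNGAA letters, the core of an interferon-stimulated response element, here searched on both strands and given in capitals where found. The same search found none in the window of Irf7, which is not shown. Both windows are RefSeq sequence of GRCm38.p6, from 250 bases before to 50 after the start site, Ifit1 on the plus strand at chr19:34640639-34640938 and Isg15 on the minus strand at chr4:156200769-156201068.
Ifit1 promoter: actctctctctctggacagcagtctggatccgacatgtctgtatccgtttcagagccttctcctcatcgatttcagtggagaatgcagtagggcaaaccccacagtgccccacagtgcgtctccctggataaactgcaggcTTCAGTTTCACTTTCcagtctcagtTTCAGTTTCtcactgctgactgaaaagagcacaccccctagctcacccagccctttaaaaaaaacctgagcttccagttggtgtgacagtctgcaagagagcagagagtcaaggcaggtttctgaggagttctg
Isg15 promoter: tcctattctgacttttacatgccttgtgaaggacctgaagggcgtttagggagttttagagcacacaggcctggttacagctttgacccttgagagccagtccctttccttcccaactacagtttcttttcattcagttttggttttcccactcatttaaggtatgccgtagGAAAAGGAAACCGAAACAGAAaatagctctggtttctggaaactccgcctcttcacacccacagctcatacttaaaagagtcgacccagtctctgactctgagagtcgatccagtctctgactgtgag
Overlapping matches gave 3 in each window, all within 110 bases before the start site. Of the 38 genes, 29 had a promoter sequence, and 15 of these held the letters (51.7%), beside 8.68% of 10682 genes tested and 8.56% of all promoter windows. The letters are a description and were not taken as sites. The other motifs were searched on both strands in the same windows, and each share is given beside that of all genes tested with a promoter. TTTGAA, the cell cycle homology region, stood in 40 of 62 mitotic genes (64.5%), beside 14.1%, and CCAAT in 44 of 62 (71%), beside 42.8%. The E2F letters TTTGGCGC and TTTCCCGC each stood in 8 of 45 DNA replication genes (17.8%), beside 1.08% and 2.29%. CACGTG, the E-box, stood in 14 of 73 ribosome biogenesis genes (19.2%), beside 11.6%. TGANTCA, the AP-1 letters, stood in 7 of 19 IL-1 and IL-6 family genes (36.8%) and 5 of 27 matrix protease genes (18.5%), beside 6.51%. TGACNNNGC, the antioxidant response letters, stood in 8 of 16 NRF2 targets (50%) and 5 of 30 detoxifying genes (16.7%), beside 17%. TCACNCCAC, the sterol response letters, stood in 1 of 24 cholesterol genes (4.17%), beside 1.38%. For CCGGAAG, the ETS letters, the shares were below that of all genes, with 1 of 17 ERK feedback genes (5.88%) and 2 of 17 ETS and immediate early genes (11.8%), beside 19.4%. TGACGTCA stood in 0 of 11 eicosanoid genes, beside 3.53%. In the single windows looked at, Dusp6 held no CCGGAAG, Nop56 and Ncl no CACGTG, and Ptgs2 and Ucp1 no TGACGTCA.

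**Figure D4:**
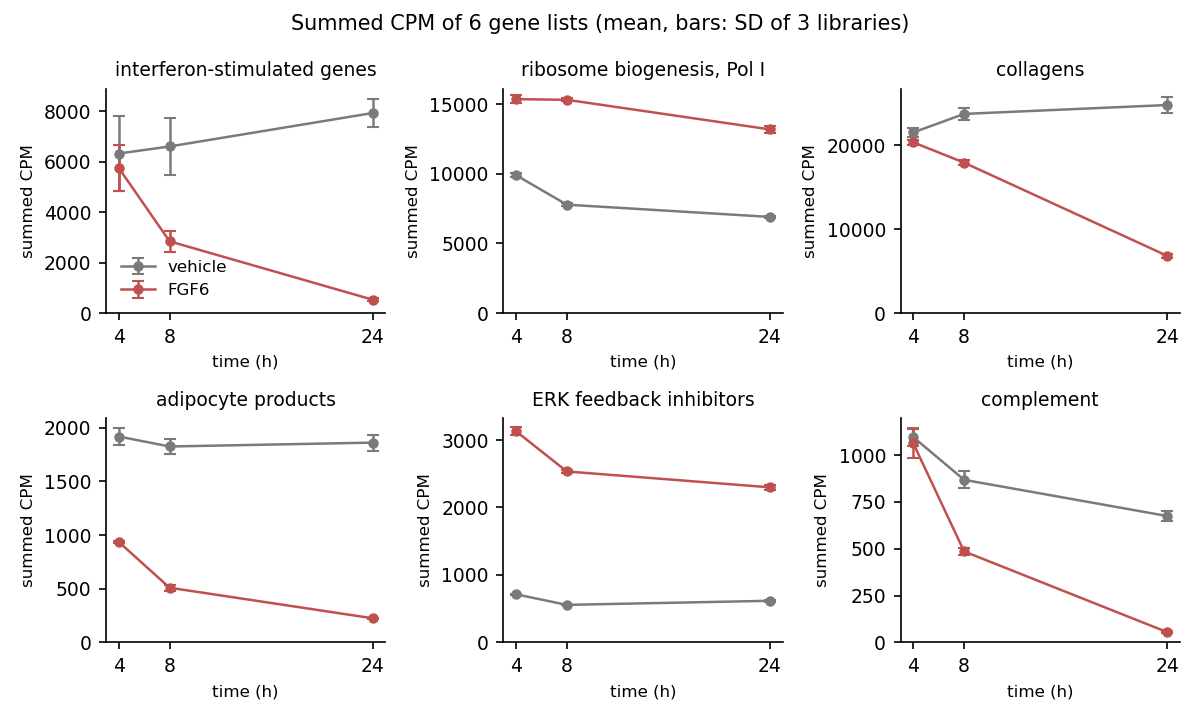
Summed CPM (y axes from 0) of 6 gene lists at 4, 8 and 24 h (x axes) in vehicle-treated (grey) and FGF6-treated (red) cells, as mean with bars of 1 SD over 3 libraries. A sum follows the most abundant members of its list. For interferon-stimulated genes the 4 h means were 6319 ± 1483 CPM with vehicle and 5742 ± 927 CPM with FGF6, and the 24 h means 7922 ± 551 and 531 ± 61.5 CPM.

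The decrease of the interferon-stimulated list built up over the day. Its summed level was 6598 ± 1143 CPM with vehicle and 2842 ± 412 CPM with FGF6 at 8 h, and the ranges of the 2 groups overlapped at 4 h. Complement genes did likewise: of 12 tested of 22, 0 were higher and 9 lower (0 and 8 by at least 2-fold), and the sum fell to 54.7 ± 5.03 CPM beside 675 ± 26.7 CPM with vehicle at 24 h, where 4 h had 1063 ± 76.0 and 1096 ± 46.5 CPM. C3, the central component, was at 382, 365 and 329.7 CPM in vehicle-treated and 19.5, 13.8 and 18.3 CPM in FGF6-treated cells (log2 fold change -4.38 ± 0.08, adjusted p = 3.19e-24). C1s1, a protease of the first component, fell from 152 ± 3.96 to 2.78 ± 0.767 CPM and C1ra from 108 ± 2.60 to 3.93 ± 0.404 CPM.

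The proteasome divided between its constitutive and its interferon-induced form. Of 47 tested of 49 genes, 40 were higher and 5 lower (0 and 5 by at least 2-fold). The 5 that were lower were the immunoproteasome subunits Psmb8, Psmb9 and Psmb10 and the activator subunits Psme1 and Psme2, genes that interferon is known to induce. Psmb8 was at 32.2, 34.5 and 33 CPM in vehicle-treated and 1.09, 1.39 and 1.54 CPM in FGF6-treated cells (log2 fold change -4.63 ± 0.22, adjusted p = 6.09e-16). Psmb9 was at 32.0, 37.8 and 32.5 CPM in vehicle-treated and 1.13, 0.607 and 1.39 CPM in FGF6-treated cells (log2 fold change -5.03 ± 0.19, adjusted p = 4.83e-18). Both of these are also in the interferon-stimulated list. The 40 that were higher did not exceed a log2 fold change of 0.66 (Psmd14, from 111 ± 2.66 to 176 ± 3.12 CPM).

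Chemokines and NF-kB feedback genes were lower. Of 24 tested of 56 chemokines and receptors, 2 were higher and 17 lower (1 and 16 by at least 2-fold). Cxcl9, an interferon-induced attractant of T cells, was at 19.8, 26.4 and 24.4 CPM in vehicle-treated and 0.0729, 0.0714 and 0.330 CPM in FGF6-treated cells (log2 fold change -7.19 ± 0.36, adjusted p = 1.51e-15), and Cxcl12 has been given above. Of 15 NF-kB genes, 2 were higher and 11 lower (1 and 6 by at least 2-fold). Nfkbia, the inhibitor that NF-kB induces, was at 152, 157 and 153 CPM in vehicle-treated and 46.1, 45.2 and 43.9 CPM in FGF6-treated cells (log2 fold change -1.77 ± 0.04, adjusted p = 1.47e-22), and Tnfaip3 (A20) fell from 47.6 ± 1.67 to 12.0 ± 1.01 CPM, while Rela, a subunit, was at 121 ± 0.850 CPM in vehicle-treated and 133 ± 1.83 CPM in FGF6-treated cells.

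In the IL-1 and IL-6 families, single ligand genes rose while most other members were lower or did not pass. Lif, leukaemia inhibitory factor, was at 1.72, 1.30 and 2.23 CPM in vehicle-treated and 52.7, 41.3 and 41.4 CPM in FGF6-treated cells (log2 fold change 4.73 ± 0.14, adjusted p = 1.88e-20), and Il11 at 0.490, 0.543 and 0.841 CPM in vehicle-treated and 14.4, 10.9 and 11.7 CPM in FGF6-treated cells (log2 fold change 4.33 ± 0.20, adjusted p = 4.08e-16). Their receptors fell: Lifr from 139 ± 5.43 to 24.7 ± 2.11 CPM and Il11ra1 from 35.8 ± 1.85 to 6.67 ± 0.395 CPM. For IL-33, by contrast, the receptor gene Il1rl1 (ST2) was higher, at 551, 476 and 488 CPM in vehicle-treated and 3642, 3390.0 and 3361 CPM in FGF6-treated cells (log2 fold change 2.78 ± 0.05, adjusted p = 1.67e-24). Il6 did not pass, at 8.00 ± 0.838 CPM in vehicle-treated and 6.35 ± 1.73 CPM in FGF6-treated cells, and Socs3 rose from 36.9 ± 3.08 to 70.1 ± 4.13 CPM. Of 19 tested of 22, 6 were higher and 10 lower (5 and 5 by at least 2-fold).

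In eicosanoid synthesis, the enzymes of prostaglandin E2 were higher. Ptgs2, the inducible cyclooxygenase (chr1:150100031-150108227, plus strand), was at 97.9, 78.0 and 78.2 CPM in vehicle-treated and 1064, 877 and 842 CPM in FGF6-treated cells (log2 fold change 3.45 ± 0.08, adjusted p = 1.54e-22). Ptgs1, the constitutive one, was at 177, 181 and 173 CPM in vehicle-treated and 319, 314 and 307 CPM in FGF6-treated cells (log2 fold change 0.82 ± 0.04, adjusted p = 9.37e-15), and Ptges, the inducible prostaglandin E synthase, at 39.8, 42 and 39.5 CPM in vehicle-treated and 120.3, 115 and 114 CPM in FGF6-treated cells (log2 fold change 1.53 ± 0.05, adjusted p = 3.23e-20). The groups did not overlap for any of the 3. Pla2g12a and Pla2g4a, phospholipases that release fatty acids, rose from 24.0 ± 1.31 to 46.6 ± 2.34 CPM and from 117 ± 2.36 to 164 ± 3.25 CPM, and Ptges2 from 31.4 ± 0.937 to 36.3 ± 2.68 CPM. Of 14 tested of 20 enzymes, 8 were higher and 5 lower (2 and 5 by at least 2-fold). The 5 lower were Ggt5, given above, and Ltc4s, Alox5ap, Tbxas1 and Ephx2. Lta4h, which makes leukotriene B4, was slightly higher, from 137 ± 0.882 to 155 ± 2.70 CPM. Ltc4s, leukotriene C4 synthase, was at 1.19, 1.42 and 1.18 CPM in vehicle-treated and 0.146, 0.0357 and 0 CPM in FGF6-treated cells (ratio of counts 21.1, counting interval 8.76 to 66.2, adjusted p = 1.53e-08), and Alox5ap, the activator of 5-lipoxygenase, at 1.37, 1.54 and 1.22 CPM in vehicle-treated and 0.219, 0.0357 and 0.330 CPM in FGF6-treated cells (log2 fold change -2.81 ± 0.40, adjusted p = 6.00e-07).

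Growth factor genes of other families went in both directions. Their counts, here and for the WNT to guidance genes below, stand beside 35.9% of all genes higher and 37.9% lower. By at least 2-fold these were 7.44% and 15.3%. The BMP and TGF-beta genes, with 42.6% higher and 46.8% lower, were among those near these shares. In the IGF system, Igf1 was at 15.2, 14.5 and 14.4 CPM in vehicle-treated and 0.255, 0.286 and 0.477 CPM in FGF6-treated cells (log2 fold change -5.42 ± 0.15, adjusted p = 9.02e-21), Igf2 fell from 19.8 ± 1.5 to 3.27 ± 0.142 CPM and the protease Pappa, which frees IGFs from binding proteins, from 12.4 ± 1.02 to 0.692 ± 0.244 CPM, while Stc1, an inhibitor of that protease, rose from 1.55 ± 0.0909 to 17.1 ± 1.38 CPM. The receptor Igf1r did not pass, at 52.5 ± 2.32 CPM in vehicle-treated and 56.1 ± 0.757 CPM in FGF6-treated cells. Of 16 tested of 17, 3 were higher and 9 lower (2 and 8 by at least 2-fold). Angiogenic factors included Vegfa, from 203 ± 12.3 to 395 ± 8.68 CPM, Pgf, from 5.41 ± 0.408 to 35.9 ± 0.517 CPM, and Hgf, from 17.2 ± 1.16 to 84.1 ± 6.56 CPM, all higher, and Angpt1, from 82.1 ± 7.21 to 10.1 ± 1.75 CPM, and Adm, from 122 ± 5.31 to 13.4 ± 0.457 CPM, both lower. Of 24 tested of 27, 8 were higher and 12 lower (5 and 10 by at least 2-fold).

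In the WNT pathway, Rspo2, an amplifier of WNT receptors, was at 86.7, 97.3 and 99.6 CPM in vehicle-treated and 1.64, 1.29 and 2.31 CPM in FGF6-treated cells (log2 fold change -5.76 ± 0.10, adjusted p = 3.72e-25), and Ccn5, a WNT-induced matricellular protein, at 273, 282 and 269.8 CPM in vehicle-treated and 6.05, 5.18 and 8.40 CPM in FGF6-treated cells (log2 fold change -5.39 ± 0.09, adjusted p = 1.87e-25). Wif1, a secreted WNT inhibitor, was at 0, 0 and 0 CPM in vehicle-treated and 0.584, 0.286 and 0.440 CPM in FGF6-treated cells (at least 4.07-fold, adjusted p = 5.21e-05). Dkk2, another inhibitor, rose from 9.76 ± 0.812 to 77.3 ± 2.71 CPM and the factor Lef1 from 1.05 ± 0.160 to 6.21 ± 0.0668 CPM. Axin2, the usual target of the pathway, was under the filter. Of 42 tested of 58, 13 were higher and 22 lower (10 and 15 by at least 2-fold), the median being -0.50 as fitted and -0.29 with 3 genes at 0 set to their bound.

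Among BMP and TGF-beta genes, Inhba, the activin A chain, was at 9.18, 8.56 and 7.23 CPM in vehicle-treated and 98.1, 98.3 and 106 CPM in FGF6-treated cells (log2 fold change 3.59 ± 0.07, adjusted p = 2.26e-24), and the antagonist Grem1 rose from 547 ± 3.98 to 1143 ± 57.1 CPM. Bmp4 was at 2.03, 2.44 and 2.06 CPM in vehicle-treated and 0.0365, 0.0357 and 0.0367 CPM in FGF6-treated cells (ratio of counts 60.6, counting interval 20.4 to 296, adjusted p = 5.30e-12), and Bmp2 at 0, 0.0905 and 0 CPM in vehicle-treated and 1.97, 2.39 and 2.94 CPM in FGF6-treated cells (ratio of counts 69.3, counting interval 23.4 to 339, adjusted p = 5.17e-11), so that these paralogous ligands moved in opposite directions. Id3 fell from 122 ± 6.04 to 19 ± 0.563 CPM while Id1 rose from 39.2 ± 4.26 to 59.3 ± 1.29 CPM. Of 47 tested of 57, 20 were higher and 22 lower (7 and 14 by at least 2-fold). Notch3, a receptor of mural cells, was at 91.7, 93.2 and 88.8 CPM in vehicle-treated and 4.45, 3.89 and 4.40 CPM in FGF6-treated cells (log2 fold change -4.42 ± 0.06, adjusted p = 2.00e-26), and of 10 tested of 17 Notch genes 3 were higher and 6 lower (1 and 5 by at least 2-fold). Of 12 tested of 14 Hedgehog genes, 3 were higher and 6 lower (2 and 2 by at least 2-fold), with Gas1, a co-receptor, lower, from 1228 ± 71.6 to 265 ± 25.8 CPM, Gli1, a target of the pathway, higher, from 0.911 ± 0.256 to 2.32 ± 0.244 CPM, and the target Ptch1 not passing, at 41.1 ± 1.08 CPM in vehicle-treated and 42.5 ± 1.16 CPM in FGF6-treated cells. Sema7a, a membrane-anchored semaphorin, had the largest increase among 52 tested of 66 guidance genes, at 12.6, 10.9 and 10.6 CPM in vehicle-treated and 458, 498 and 491 CPM in FGF6-treated cells (log2 fold change 5.41 ± 0.06, adjusted p = 4.44e-28). Of these, 19 were higher and 26 lower (11 and 18 by at least 2-fold).

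Detoxifying enzymes separated from antioxidant ones. Of 39 tested of 49 glutathione transferases and detoxifying enzymes, 5 were higher and 32 lower (2 and 24 by at least 2-fold). Cyp1b1, a cytochrome P450, was at 620.5, 611 and 612 CPM in vehicle-treated and 54.0, 49.0 and 53.4 CPM in FGF6-treated cells (log2 fold change -3.56 ± 0.04, adjusted p = 5.28e-28). Ephx1, an epoxide hydrolase, fell from 160.5 ± 7.02 to 14.5 ± 1.31 CPM, Cbr2, a carbonyl reductase, from 184 ± 4.79 to 8.15 ± 0.655 CPM, and Aldh1a1, a retinaldehyde dehydrogenase, from 8.40 ± 1.02 to 0.351 ± 0.139 CPM. Akr1c18, a hydroxysteroid dehydrogenase, was among the 5 that were higher, at 0, 0 and 0.0841 CPM in vehicle-treated and 0.766, 1.46 and 0.587 CPM in FGF6-treated cells (ratio of counts 40.3, counting interval 10.8 to 339, adjusted p = 2.07e-07), both vehicle counts being in the third library. Of 21 NRF2 targets, 13 were higher and 7 lower (3 and 0 by at least 2-fold). Srxn1 (sulfiredoxin) was at 103, 106 and 109.7 CPM in vehicle-treated and 811, 813 and 807 CPM in FGF6-treated cells (log2 fold change 2.93 ± 0.04, adjusted p = 9.88e-28), Txnrd1 rose from 304 ± 6.51 to 587 ± 6.44 CPM and Gclm from 84.9 ± 3.71 to 137 ± 6.09 CPM, while Hmox1 fell from 262 ± 2.67 to 176 ± 10.04 CPM and Nqo1 did not pass, at 63.2 ± 5.21 CPM in vehicle-treated and 69.5 ± 1.98 CPM in FGF6-treated cells.

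Lysosomal and autophagy genes were mostly lower, by modest amounts. Of 62 tested of 69 lysosomal genes, 9 were higher and 46 lower (2 and 15 by at least 2-fold), and of 29 tested of 30 autophagy genes 4 were higher and 24 lower (0 and 3 by at least 2-fold). Lipa, the lysosomal acid lipase, fell from 229 ± 14.3 to 64.3 ± 3.41 CPM, Ctsf from 16.4 ± 1.14 to 2.42 ± 0.0346 CPM and Lamp1, a membrane protein of the organelle, from 1828 ± 50.3 to 1214 ± 41.1 CPM. Ctsl (cathepsin L) was at 456, 448 and 456 CPM in vehicle-treated and 3257, 3159 and 3132 CPM in FGF6-treated cells (log2 fold change 2.81 ± 0.03, adjusted p = 2.65e-28), the largest increase of that list, and shares 1742 exonic bases with a gene on the other strand. Sqstm1 (p62) and Gabarap, an autophagosome protein, fell from 680.1 ± 17.9 to 449 ± 16.5 CPM and from 551 ± 15.1 to 257 ± 6.0 CPM. Of 23 chaperones and unfolded protein response genes, 7 were higher and 10 lower (0 and 1 by at least 2-fold), and Hspa5 (BiP) did not pass, at 1049 ± 17.8 CPM in vehicle-treated and 1065 ± 2.14 CPM in FGF6-treated cells. In iron handling, Tfrc, the transferrin receptor, was at 190.2, 174 and 175 CPM in vehicle-treated and 557, 506 and 499 CPM in FGF6-treated cells (log2 fold change 1.54 ± 0.04, adjusted p = 5.70e-21), while Fth1, a ferritin chain, fell from 1885 ± 73.4 to 1265 ± 44.0 CPM and the exporter Slc40a1 from 3.64 ± 0.211 to 1.56 ± 0.483 CPM. Of 20 tested of 21 iron genes, 4 were higher and 13 lower (2 and 7 by at least 2-fold).

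Several nuclear receptors of steroid, vitamin and thyroid hormones were lower. The counts of this paragraph stand beside 35.9% of all genes higher and 37.9% lower (7.44% and 15.3% by at least 2-fold). Esr1, the oestrogen receptor, was at 19.1, 19 and 21.2 CPM in vehicle-treated and 0.875, 1.11 and 1.14 CPM in FGF6-treated cells (log2 fold change -4.24 ± 0.14, adjusted p = 3.40e-19), Vdr, the vitamin D receptor, fell from 82.0 ± 1.59 to 12.3 ± 0.454 CPM, and Thra, a thyroid hormone receptor, from 113 ± 0.918 to 30.1 ± 0.388 CPM. None of the 7 that were higher reached 2-fold: of 32 tested of 49, 7 were higher and 16 lower (0 and 9 by at least 2-fold). Of 19 clock genes, 5 were higher and 13 lower (0 and 7 by at least 2-fold), with the output factor Dbp lower, from 24.8 ± 0.992 to 6.85 ± 1.33 CPM, and Arntl (BMAL1) higher, from 16.9 ± 1.25 to 20.8 ± 0.768 CPM. Of 14 tested of 17 Kruppel-like factors, 5 were higher and 5 lower (1 and 2 by at least 2-fold). At 35.7% each way these were near the shares of all genes. Of 26 tested of 39 Hox genes, which record the body position of a cell, 5 were higher (19.2%) and 12 lower (46.2%), 1 and 3 by at least 2-fold. Hoxc12 fell from 21.6 ± 1.74 to 6.27 ± 1.31 CPM while Hoxb4 rose from 7.96 ± 1.67 to 16.8 ± 1.61 CPM. Of 64 tested of 66 chromatin enzymes, 26 were higher and 26 lower (1 and 2 by at least 2-fold). At 40.6% each way these too were near the shares of all genes, with fewer at 2-fold. Imprinted growth genes were mostly lower, 11 of 16 tested of 20. H19 was at 156, 181 and 188 CPM in vehicle-treated and 10.1, 10.6 and 11.1 CPM in FGF6-treated cells (log2 fold change -4.04 ± 0.07, adjusted p = 9.38e-25), and Mest fell from 15.5 ± 1.90 to 1.55 ± 0.257 CPM. Phlda2, a placental growth inhibitor, was one of 2 that were higher, at 0, 0 and 0 CPM in vehicle-treated and 0.474, 0.857 and 0.844 CPM in FGF6-treated cells (at least 6.76-fold, adjusted p = 3.84e-06).

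The third vehicle library was left out to see which results rested on it. Without it, 1222 genes were at least 2-fold higher and 2235 lower, and of the 1122 and 2309 genes called with all libraries 1085 (96.7%) and 2162 (93.6%) were called again. Of 15071 genes, 39 moved by over 1 on the log2 scale relative to the median shift of 0.04, and 93.1% lay within 0.2. CT010467.1, another ribosomal RNA-like locus, was at 148, 141 and 10583 CPM in the vehicle libraries and at 161, 138 and 172 CPM in the FGF6 libraries, so that the third vehicle library alone stood apart. Its log2 fold change was -4.53 with that library and 0.16 without it. Lars2, a mitochondrial leucyl-tRNA synthetase gene that contains a ribosomal RNA-like stretch, went from -2.41 to -0.15, Gm26917 from -1.99 to 0.02 and Rpph1, the RNA of ribonuclease P, from -5.79 to 0.21. The large decreases of these loci were thus seen only with the third vehicle library, although Lars2 still passed without it (adjusted p = 0.00593). Not every such decrease vanished: n-R5-8s1 went from -3.25 to -1.45 and Gm24601 from -3.94 to -1.32. Both still passed by edgeR without that library (adjusted p = 6.48e-07 and 7.35e-06). The remainder of the 39 included structural RNA, histone and low-count genes, among them Cd53 and Akr1c18, whose few vehicle counts were all in the third library.

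**Figure D5:**
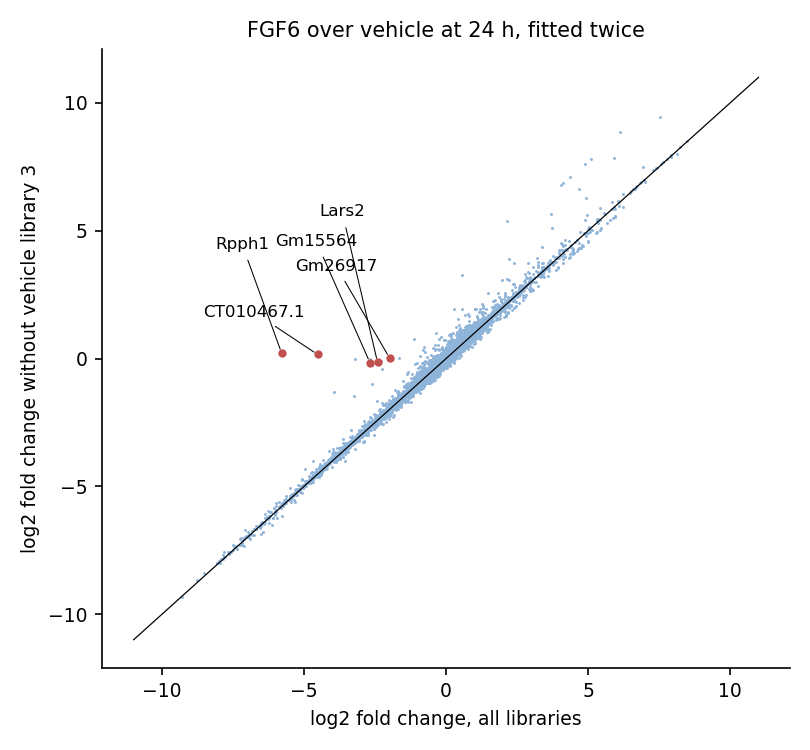
Log2 fold change at 24 h of each of 15071 genes fitted with all libraries (x axis) and without the third vehicle library (y axis), with the line of equality. The labelled ribosomal RNA-like loci and Rpph1 lie near 0 on the y axis and between -6 and -1 on the x axis, off the line on which most genes lie.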

How the data were processed

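RNA-seq of FGF6-treated and vehicle-treated brown preadipocytes was deposited by the authors as 1 table of raw counts per gene for 18 libraries, which they made with STAR and featureCounts on GRCm38 and did not normalize. Versions and the strand setting of the counting are not given in the sources used here. The counts were taken as deposited. The 6 groups were taken from the sample labels, with 3 libraries per group, and all 18 libraries entered 1 fit, which shares the estimate of the spread. Genes passing edgeR's filterByExpr were kept, TMM factors were computed, and FGF6 was compared with vehicle at 24 h by edgeR's quasi-likelihood test (R 4.3.3, edgeR 4.0.16) with Benjamini-Hochberg adjustment at 0.05, the study itself having used limma with voom and a threshold of 0.25. The common biological coefficient of variation was 0.0458. With 3 against 3 libraries, an exact permutation test of a single gene cannot give a p below 0.1, so none was run. CPM values use the TMM-scaled library size. A gene at 0 in 1 group was set against a floor of 3 counts per library, and for many genes with 1 to 30 counts in the lower group the ratio of library-scaled counts is given in place of the fitted value with an exact 95% counting interval, which covers counting error only.

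Named genes were the 10 largest increases and decreases among genes with an adjusted p under 0.05, groups that did not overlap and at least 1 CPM on average, the marked members and up to 3 largest increases and decreases of each gene list, and genes the study names for its RNA-seq. Adamts8, Alox5ap, Lta4h, Ltc4s and Phlda2, and the loci and genes named for the third vehicle library, were named after their values were seen. The members and lists were chosen with earlier results of these data known, and no list was tested as a set. The ISRE-type and E-box motifs were added after the data had been examined. Coordinates are GENCODE M21 on GRCm38, in which 47310 gene identifiers (98.5%) were found, and promoters are RefSeq, GRCm38.p6, of which 32851 were searched. The scripts were tested on simulated counts. Alternatives were limma with voom (3.58.1), DESeq2 (1.42.0), other scalings, other filters, a replicate block, fewer libraries and left-out libraries.

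The levels of the following named genes are uncertain, since their exons share bases with a gene on the other strand and, without strand, the reads of both cannot be told apart: Adamts8, Alox5ap, Angpt1, Arntl, Aspn, Bcl6, Bmp4, C1s1, Ccn2, Ccnd1, Ccnd2, Cd34, Cdkn1a, Cdkn1c, Cebpa, Cebpb, Cebpd, Col10a1, Ctsl, Dbp, Ddit3, Dusp5, Ebf2, Ereg, Esrra, Fgf10, Fgf2, Fgfr1, Fgfr3, Flii, Fn1, Fosl1, Foxo1, Gas1, Gclm, Gli1, Gpc1, H19, Has2, Hmgcs1, Igf2, Il11ra1, Irf7, Itgad, Jun, Lamp1, Lef1, Lox, Ltc4s, Mecom, Mest, Mxd4, Nhp2, Nop56, Notch3, Nrg1, Pdgfra, Pi16, Pik3ip1, Ppat, Prdm16, Psmb8, Psmb9, Ptgs1, Slc2a1, Spry1, Sqstm1, Srebf1, Stc1, Tagln, Tcim, Thbs1, Thra, Tnc, Txnip and Vcam1.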

Additional observations from a re-analysis of the deposited data

Results flagged for a closer look

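Of the 20 genes with the largest changes, 16 had a different effect of FGF6 at 24 h than at 8 h, by a test of the interaction with adjustment over all genes (edgeR). Of all 15071 genes, 6797 (45.1%) passed this test, and the 20 were chosen for extreme values at 24 h. The other 4 were Areg (-0.12, adjusted p = 0.837), Adcy8 (0.55, adjusted p = 0.577), Slc17a1 (-2.84, adjusted p = 0.0888) and Mcpt8 (2.28, adjusted p = 0.0523). These values and those below are the log2 fold change at 24 h minus that at 8 h. For genes at or near 0 counts in a group they depend on the prior count. Among the decreases, the difference was -7.07 for P2rx1 (adjusted p = 0.00125), -6.51 for Egfl6 (adjusted p = 6.28e-10), -6.45 for Ces1g (adjusted p = 2.13e-09), -5.42 for Ggt5 (adjusted p = 5.25e-08) and -5.30 for Treml1 (adjusted p = 0.00017). It was -4.46 for Fmo1 (adjusted p = 0.00217), -4.26 for Serpina3h (adjusted p = 1.62e-06), -4.19 for Gm4951 (adjusted p = 0.00109) and -2.35 for Scara5 (adjusted p = 0.00341). Among the increases, the difference was 3.52 for Hao1 (adjusted p = 7.13e-05), 3.30 for Nckap1l (adjusted p = 0.00103), 3.26 for Cd53 (adjusted p = 0.031) and 2.75 for Prss22 (adjusted p = 2.19e-08). It was 2.00 for Tcim (adjusted p = 6.54e-05), 1.85 for Il33 (adjusted p = 1.10e-06) and 0.86 for Slc14a1 (adjusted p = 0.00380).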

How the results depend on the processing

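The counts of genes higher and lower, and at least 2-fold higher and lower, stayed within 1.5 times of the main counts (5409, 5706, 1122 and 2309) under every alternative with the same criterion but 1. With a minimum of 10 counts in every library, 691 genes were at least 2-fold higher and 1396 lower among 12178 tested. That filter drops each gene with fewer counts in any of the 18 libraries, genes near 0 in 1 group among them. limma with voom gave 1125 and 2307 at least 2-fold higher and lower, DESeq2 1141 and 2235, library sizes alone 1103 and 2335, upper-quartile factors 1091 and 2347, the 24 h libraries alone 1023 and 2077 and no filter 1252 and 2789. glmTreat, a test against 1.5-fold and so another criterion than these counts, called 1681 higher and 2737 lower. Leaving out each library in turn gave 5260 to 5661 genes higher and 5198 to 5495 lower, with 1115 to 1279 and 2203 to 2312 at least 2-fold. The replicate numbers did not pair the libraries: same-numbered libraries deviated together with correlations of -0.019, 0.028 and -0.041 across 9433 genes. A replicate block gave 5416 and 5700 genes, 1114 and 2305 at least 2-fold. Among 526 genes followed, 8226 of 8327 results kept direction and side of the threshold, 37 newly passed (11 genes), 54 no longer passed (16 genes) and 10 changed sign (6 genes). Over the fits that leave out 1 library, log2 fold changes ran from -0.025 to 0.035 for Ccnd2 (0.011 without vehicle library 1, 0.0094 without FGF6 library 1, 0.023 without FGF6 library 3), from -0.15 to 0.13 for Cebpb (0.026 without FGF6 library 1), from -2.41 to 0.021 for Gm26917, from -6.35 to 0.21 for Rpph1, from -1.19 to 0.12 for mt-Rnr1 and from -0.65 to 0.53 for mt-Rnr2. The highest values of the last 4 were those without vehicle library 3. The cause was not tested. The depth limits genes at 0 to a bound, which set 76 genes.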
